A study of Rattus norvegicus with 20 samples.

Results

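Potassium channels other than the inward rectifiers were followed in the hypothalamic arcuate nucleus of male Sprague-Dawley rats, taken at P15. The members were chosen by symbol: every gene whose symbol starts with Kcn, leaving out Kcnj. The array carried 74 such genes on 113 of its 44254 spots, and 66 of them had at least 3 values in every group, out of 13292 genes measured in the same way. Of these 66 genes, 62 had a value in all 20 samples. Kcna10, Kcne1, Kcng4, Kcnh5, Kcnk15, Kcnk18, Kcnmb1 and Kcnmb3 had too few values and were left out.

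The study set 5 groups of 4 rats side by side. BYP, BYA and BYS rats had been exposed to betamethasone before birth and had infantile spasms triggered by repeated NMDA. They were given the C5ar1 antagonist PMX53 (BYP), ACTH (BYA) or saline (BYS). Per the paper, this treatment began after the first trigger. NMDA was given again later, the last time on the day the tissue was taken. BNS rats had the same prenatal betamethasone and saline after birth, without spasms. SNS rats had prenatal saline and postnatal saline, also without spasms. The betamethasone, a synthetic glucocorticoid, was given to the mother on gestational day 15 in doses of 0.4 mg/kg. NMDA, an agonist of one class of glutamate receptors, was thus given to all rats of the BYP, BYA and BYS groups and is not separated from the spasms by these groups. The labels do not say which rats of a group were littermates, so the p-values measure the spread between these samples.

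These channels open a path for potassium out of the cell and bring the membrane back toward rest. Voltage-gated alpha subunits (families Kcna to Kcnd, Kcnh and Kcnq) open on depolarisation and shape the spike and the firing rate, and the silent subunits counted with them here (Kcnf, Kcng, Kcns and Kcnv) form no channel alone but change the gating of their partners. Calcium- and sodium-gated channels (Kcnma, Kcnn, Kcnt) follow bursts of spikes, two-pore-domain channels (Kcnk) carry the resting leak, and auxiliary subunits (Kcnab, Kcne, Kcnip, Kcnmb) change the gating or trafficking of the alpha subunits. In the arcuate nucleus, as in other brain regions, they set how easily peptide neurons fire.

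Each sample gave 34107 to 44249 spots with a value. Levels below are log2 values with the median of the sample subtracted, and a difference is the fitted log2 difference between 2 groups with its SE (limma, n = 4 rats per group). The 20 samples lay on 11 arrays of 6 slides. The BYP, BYA, BYS and BNS samples each lay on a slide of their own, so slide and group cannot be told apart, and SNS replicate 2 was the only SNS sample on its slide. In each group 2 samples carried Cy3 and 2 carried Cy5 per the labels. SNS replicate 2, labelled Cy5, had 44159 spots with a value, as Cy3 samples did, where the other Cy5 samples had at most 39968. Its dye is therefore in doubt. The fits kept it as Cy5 unless stated otherwise, and this choice moves the counts given below. As a description of the tissue, the mean level over 12 arcuate nucleus genes (Agrp, Pomc, Npy, Ghrh and others) was 2.60 to 2.99 in every sample, and that over 10 neuronal genes was 2.64 to 3.20. No genes of neighbouring nuclei were set beside them, so these levels do not show how closely the nucleus was cut out. Since these are bulk samples, fewer cells of a type and less RNA per cell cannot be told apart.

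BYS was set against BNS to ask which genes differed with spasms when the prenatal exposure was shared. Of the 66 channel genes, 9 passed the threshold (adjusted p under 0.05), and all 9 were higher in BYS: Kcna7, Kcnh3, Kcnh7 and Kcnv2 among the voltage-gated alpha subunits, Kcnab3, Kcne4 and Kcnmb2 among the auxiliary subunits, and Kcnk3 and Kcnk5 among the two-pore-domain channels. None of the 7 calcium- and sodium-gated alpha subunits passed. With SNS replicate 2 kept as Cy5, none of the 9 genes passed in BYS against SNS, the other group without spasms. The 9 genes were 13.6% of the 66, against 15.5% of all 13292 genes that passed in either direction and 8.87% that passed and were higher. The median difference of the 66 genes was 0.32, with 54 above 0, and the median of all genes was 0.18. At an unadjusted p under 0.05 there were 18 higher and 2 lower channel genes, Kcnk6 and Kcnk12 being the lower ones, where 34.0% of all genes had such a p and 22.5% had it and were higher. The count of 9 rested on single samples: it was 23 without SNS replicate 2, the sample of doubtful dye, 2 without BNS replicate 2 and 1 without BNS replicate 4. It was 0 with the slide rather than the array as random block, a fit that cannot separate slide from group. The share of all genes that passed in these fits is not given. A shift of all genes and one of the channel genes thus cannot be told apart. Kcnk3 was the 1 gene of the 9 that passed with each of the 20 samples left out in turn.

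**Figure D1:**
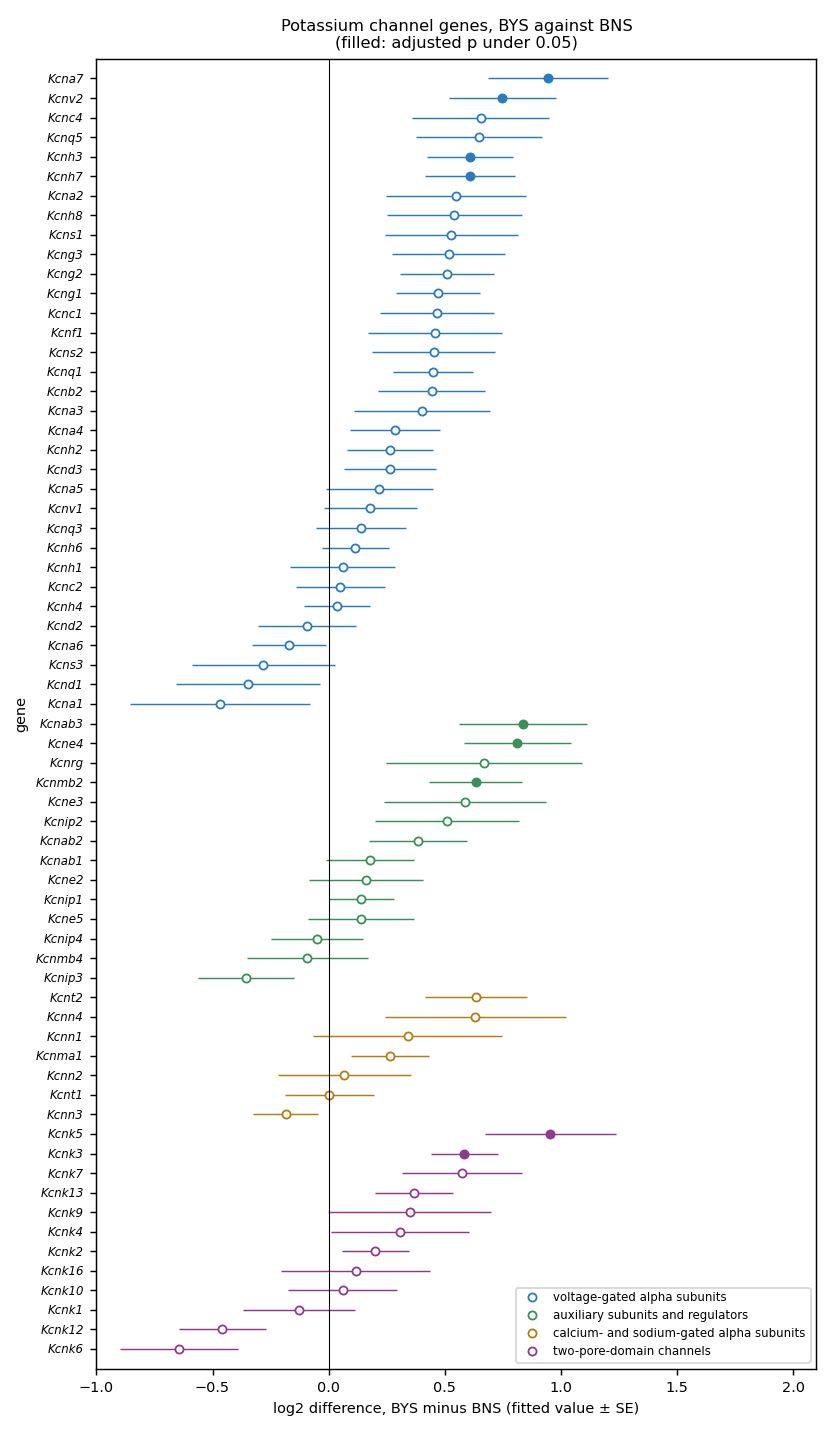
Fitted log2 difference BYS minus BNS of each of the 66 potassium channel genes, with bars of 1 SE, in 4 colours for the channel classes and filled where the adjusted p was under 0.05. The 9 filled points lie between 0.58 and 0.95, and the lowest point is Kcnk6 at -0.64.

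Kcnk3 (TASK-1), an acid-sensitive leak channel that helps to set the resting potential, was the brightest of the 9, at the 69.3rd percentile of all genes. Its level was 1.42, 1.73, 1.21 and 1.5 in the BYS samples, against 0.76, 0.96, 0.77 and 1.03 in the BNS samples. The groups did not overlap, and both the Cy3 and the Cy5 samples kept that order. The difference was 0.58 ± 0.14 (1.5-fold, adjusted p = 0.0132 in limma). It was 0.17 ± 0.14 for BYA and 0.33 ± 0.14 for BYP against BNS, with adjusted p of 0.779 and 0.865. When the array that held BYS replicates 1 and 2 was left out, the BYS difference was 0.47 (adjusted p = 0.0883), and taking the slide in place of the array as the block left 0.58 (adjusted p = 0.115). BYS and BNS each lay on 1 slide, so the fit by slide cannot separate slide from group, and no conclusion is drawn from it.

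Kcnk5 (TASK-2), a leak channel opened by alkaline pH, differed by 0.95 ± 0.28 (1.94-fold, adjusted p = 0.0309), from a dim spot at the 16.4th percentile. Its level was -1.14, -2.46, -1.30 and -2.24 in BYS, against -1.91, -3.10, -2.46 and -3.48 in BNS. In both groups the Cy5 samples (replicates 2 and 4) were the low ones, so the groups overlapped as a whole, but within each dye every BYS sample was above every BNS sample. The other 10 two-pore-domain genes did not pass. Kcnk6 (TWIK-2) was the lowest of them, with -1.06, -2.30, -1.16 and -1.79 in BYS against -0.75, -1.08, -0.88 and -1.03 in BNS, a difference of -0.64 ± 0.25 (adjusted p = 0.0881).

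Among the voltage-gated alpha subunits, Kcna7 (Kv1.7), known mainly from heart and skeletal muscle, had levels of -1.77, -2.49, -1.41 and -2.22 in BYS, against -2.19, -3.67, -2.04 and -3.77 in BNS. Its difference was 0.95 ± 0.26 (1.93-fold, adjusted p = 0.0220). The gap was 1.37 in the Cy5 samples and 0.52 in the Cy3 samples. Kcnv2 (Kv8.2), a silent subunit that changes the gating of its partners and is known from photoreceptors, had levels of -1.18, -1.84, -1.08 and -1.56 in BYS, against -1.82, -2.76, -1.68 and -2.39 in BNS. Its difference was 0.75 ± 0.23 (1.68-fold, adjusted p = 0.0364). For both genes the groups overlapped as a whole and were apart within each dye.

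The ether-a-go-go family Kcnh held the other called alpha subunits. Kcnh3 (Kv12.2), a channel active near the resting potential of forebrain neurons, had levels of -0.58, -0.99, -0.73 and -1.47 in BYS, against -1.08, -1.96, -1.17 and -2.01 in BNS. Its difference was 0.61 ± 0.19 (1.53-fold, adjusted p = 0.0347), and it was unequal between its 2 spots, 0.29 at the brighter and 0.93 at the dimmer. Kcnh7 (Erg3), a neuronal channel of slow deactivation, had levels of -1.14, -2.70, -1.30 and -2.55 in BYS, against -1.94, -3.30, -1.77 and -3.10 in BNS, a difference of 0.61 ± 0.19 (1.53-fold, adjusted p = 0.0423). In both genes the groups overlapped as a whole, the Cy5 samples being the low ones, and were apart within each dye. All 7 Kcnh genes had a difference above 0, with a median of 0.26. The other 5 were Kcnh1 (Eag1) at 0.06, Kcnh2 (Erg1) at 0.26, Kcnh4 at 0.04, Kcnh6 (Erg2) at 0.11 and Kcnh8 at 0.54, none of which passed.

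Of the auxiliary subunits, Kcnab3 (Kv beta 3), a cytoplasmic partner of Kv1 channels, had levels of -1.15, -2.71, -1.42 and -2.84 in BYS, against -2.18, -3.75, -1.77 and -3.76 in BNS. Its difference of 0.84 ± 0.28 lay closest to the threshold (1.78-fold, adjusted p = 0.0478). Kcne4 (MiRP3), a single-span subunit that inhibits several Kv channels, had levels of -1.29, -3.07, -1.35 and -2.84 in BYS, against -2.13, -2.03 and -4.00 in BNS replicates 1, 3 and 4, replicate 2 being without a value. Its difference was 0.81 ± 0.23 (1.76-fold, adjusted p = 0.0271). Both genes had low Cy5 samples in both groups, so that BYS and BNS overlapped except within a dye. Kcnmb2, the beta subunit that gives BK channels fast inactivation, had levels of -0.43, -0.80, -0.52 and -1.02 in BYS, against -1.11, -1.54, -1.13 and -1.54 in BNS. Here the groups did not overlap, the 2 spots of the gene gave 0.69 and 0.57, and the fitted difference was 0.63 ± 0.20 (1.55-fold, adjusted p = 0.0401).

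**Figure D2:**
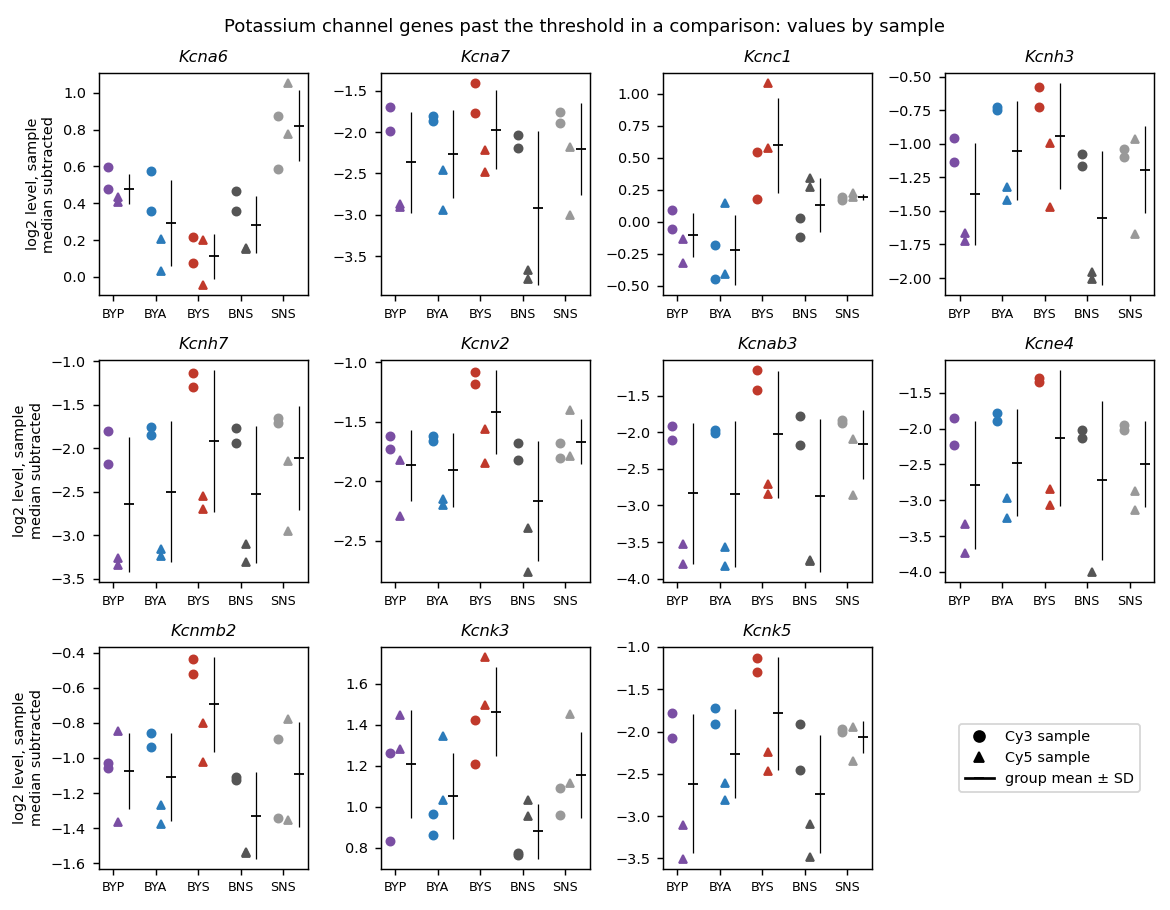
Log2 level, with the sample median subtracted, of the 11 genes that passed in at least 1 comparison, in BYP, BYA, BYS, BNS and SNS rats. Circles are Cy3 samples, triangles Cy5 samples, and the bar is the group mean ± SD. In Kcnk3 and Kcnmb2 all BYS points lie above all BNS points, whereas in genes such as Kcnh7 and Kcnab3 the Cy5 samples lie below the Cy3 samples in every group.

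The sequence upstream of the start was looked up for the 9 genes, and RefSeq (build GRCr8) gave a promoter entry for 6 of them. The 9 were taken because they passed in 1 comparison, and whether they are controlled together was not tested. The 250 bases before the start were searched on both strands for TGACG, the core of the cAMP response element, which the transcription factor CREB binds. Kcnab3, Kcne4 and Kcnv2 held a match, shown in capitals in the 3 sequences given here. Such a match was present in 18.2% of all 33469 promoter entries and in 8 of the 44 channel genes with an entry, and is a description of the letters, not a site of binding.
Kcnab3 (chr10:54546388-54546637, plus strand): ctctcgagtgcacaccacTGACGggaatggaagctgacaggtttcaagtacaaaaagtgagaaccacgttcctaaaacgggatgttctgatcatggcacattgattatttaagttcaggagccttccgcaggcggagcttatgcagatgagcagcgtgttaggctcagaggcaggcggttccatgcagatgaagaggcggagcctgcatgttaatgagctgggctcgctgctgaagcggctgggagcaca
Kcne4 (chr9:87695798-87696047, plus strand): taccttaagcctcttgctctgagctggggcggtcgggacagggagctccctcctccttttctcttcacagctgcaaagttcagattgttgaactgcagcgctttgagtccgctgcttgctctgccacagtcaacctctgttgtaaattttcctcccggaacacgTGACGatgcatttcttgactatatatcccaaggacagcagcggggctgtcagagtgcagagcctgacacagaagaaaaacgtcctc
Kcnv2 (chr1:234412924-234413173, plus strand): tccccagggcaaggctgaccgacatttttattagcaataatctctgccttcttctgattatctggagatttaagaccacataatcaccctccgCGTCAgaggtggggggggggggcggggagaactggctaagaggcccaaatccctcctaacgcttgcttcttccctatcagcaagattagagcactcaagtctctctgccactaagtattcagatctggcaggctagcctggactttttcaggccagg
The match lay 232 bases before the start in Kcnab3 and 86 in Kcne4. In Kcnv2 it began 157 bases before the start and is written CGTCA, being on the opposite strand. AGAACA, one arm of the palindrome that the glucocorticoid receptor binds, was found in 17.5% of all entries and in 1 of the 6, Kcnab3.

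The spots of Kcnd2 (Kv4.2) bear on how far the values of the BYS samples can be read. Kcnd2, the main A-type channel of dendrites, was the only channel gene with 11 spots, all with a value in every sample. The difference BYS minus BNS ran from -1.27 to 0.89 over these 11 spots, with 5 above 0 and 6 below, an SD of 0.64 and a mean of -0.09. The same spots gave an SD of 0.08 for BYP minus BNS, 0.14 for BYA minus BNS and 0.08 for BNS minus SNS. In single samples, the SD over the spots of the level relative to the mean of the groups other than BYS was 0.66 to 0.78 in the 4 BYS samples, on both of their arrays, and 0.04 to 0.22 in the 16 other samples. The spots with low differences stood mostly at low numbers in the table and those with high differences at high numbers. With the local trend along the table removed, the SD for BYS minus BNS was 0.50. Over the 1141 genes of the table with 5 or more spots, the median SD over spots was 0.40 for BYS minus BNS, against 0.08, 0.20 and 0.14 for BYP minus BNS, BYA minus BNS and BNS minus SNS.

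**Figure D3:**
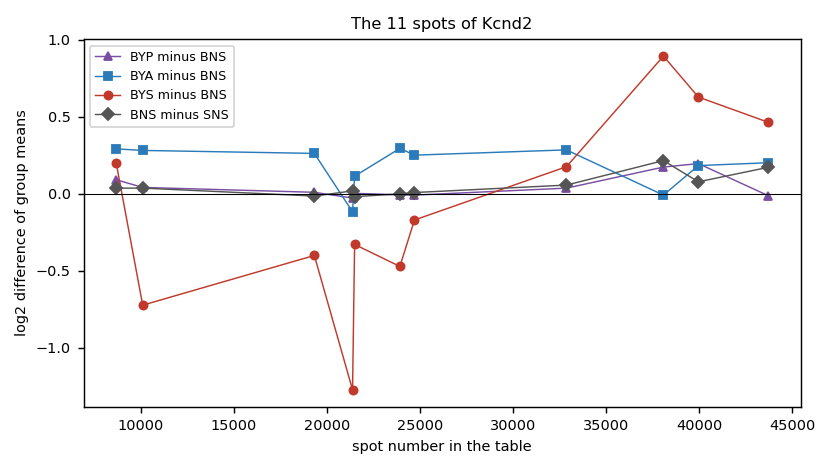
Log2 difference of group means at each of the 11 spots of Kcnd2, by the number of the spot in the table, for BYP, BYA and BYS minus BNS and for BNS minus SNS. The line of BYS minus BNS spans -1.27 to 0.89, and the other lines stay between -0.12 and 0.29.

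Of the 9 called genes, Kcnab3, Kcne4, Kcnh7, Kcnk3 and Kcnk5 had 1 spot on the array, and Kcna7 and Kcnv2 had 2, of which 1 had values in all samples and was used. Of the 9 differences, 7 lay within the range that the 11 spots of Kcnd2 span, and Kcna7 and Kcnk5, both at 0.95, lay just above its upper end of 0.89. The SE of the fit, 0.14 to 0.28 for these genes, comes from the spread between samples of a spot and does not hold the spread between spots. With the local trend removed, Kcnk3 (0.81) and Kcnh3 (0.71) were the 2 of the 9 genes that still passed, and 3 others passed in their place, Kcnq1 and Kcnq5 (higher) and Kcnip3 (lower). Across the 19 channel genes with several complete spots, the spots of 12 differed in sign for BYS minus BNS, among them Kcnk13 (THIK-1) at -0.47 and 1.20, Kcnk2 (TREK-1) at -0.41 to 0.74, Kcng1 at -0.06 and 1.00 and Kcnip1 at -0.37 and 0.66. The spots differed in sign in 8 of the 19 for BYP minus BNS, in 11 for BYA minus BNS and in 6 for BNS minus SNS. The median span over the spots of a gene was 0.53 for BYS minus BNS, and 0.22, 0.23 and 0.48 in these 3 comparisons. For these 19 genes it was thus widest for BYS minus BNS, with BNS minus SNS, which holds no BYS sample, close to it. Signs differ easily where differences lie near 0, and no share of all genes is given for the counts of sign. The part of the place on the array in the 9 calls was not otherwise tested.

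Brightness moved with the differences as well. In BYS against BNS the median difference of all genes was 0.61 in the dimmest brightness decile and -0.08 in the brightest. Of the 66 channel genes, 40 lay in the dimmest 4 deciles, with a median difference of 0.49, where the median of all genes of those deciles was 0.46. The other 26 channel genes had a median of 0.12, against -0.01 for all genes of the upper 6 deciles. Of the 9 calls, 8 were among the 40 dim genes, and 15.1% of all genes of those deciles passed and were higher. Kcnk3 was the 1 call among the 26, where 4.70% of all genes passed and were higher. In the dim channel genes the Cy5 samples were also lower than the Cy3 samples, by a median of 1.00 in BYP, 0.88 in BYA, 1.06 in BYS, 1.00 in BNS and 0.45 in SNS (the SNS value includes replicate 2). In the 26 brighter genes the median of Cy5 minus Cy3 was -0.06 to 0.17 over the groups, negative where Cy5 was lower. With quantile normalization between samples, 6 channel genes passed, 4 higher and 2 lower in BYS, and 3 of them were among the 9. No share of all genes is given for this setting. Kcna7 then differed by 0.36 (adjusted p = 0.290). The part of brightness in the differences was not otherwise tested.

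**Figure D4:**
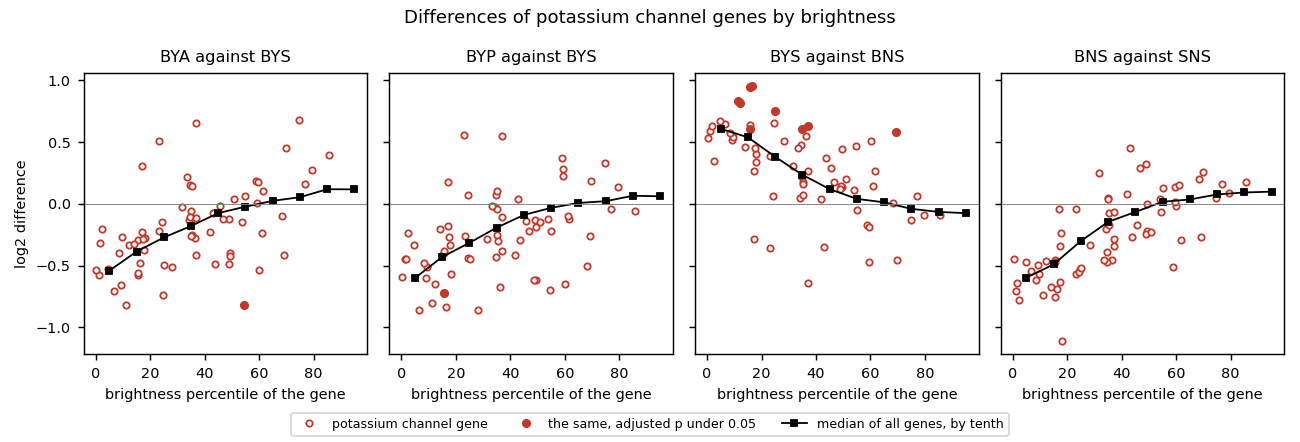
Log2 difference of the 66 potassium channel genes against the brightness percentile of the gene among all genes, for 4 comparisons, filled where the adjusted p was under 0.05. The black line is the median of all genes in each decile of brightness. It runs from 0.61 to -0.08 in BYS against BNS and from -0.60 to 0.10 in BNS against SNS, and most channel genes follow it.

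The members listed for their roles gave no further call in BYS against BNS. Of the Kv1 channels of axons, Kcna1 (Kv1.1) had a difference of -0.47 ± 0.39 and Kcna2 (Kv1.2) of 0.55 ± 0.30, with adjusted p of 0.398 and 0.206. In Kcna1 the 4 BYS samples were spread from -0.53 to 1.12, around BNS samples at 0.58 to 0.80. Kcnc1 (Kv3.1), the channel of fast-spiking neurons, was at 0.47 ± 0.24 (adjusted p = 0.186). Kcnd3 (Kv4.3), an A-type channel like Kcnd2, was at 0.26 ± 0.20, and Kcnip3, a calcium-binding partner of Kv4 channels that also acts as a transcriptional repressor, at -0.36 ± 0.20 (adjusted p = 0.225). The subunits of the M-current, which holds back repeated firing, were at 0.14 ± 0.19 (Kcnq3) and 0.65 ± 0.27 (Kcnq5, adjusted p = 0.104).

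Of the 7 channels that follow calcium or sodium entry, 6 had a difference above 0 and none passed. Closest to the threshold was Kcnt2 (Slick), a sodium-activated channel, at 0.63 ± 0.22 (adjusted p = 0.0584), and Kcnn4, the intermediate-conductance calcium-activated channel, was at 0.63 ± 0.39 (adjusted p = 0.256). The BK channel Kcnma1 differed by 0.26 ± 0.17 between BYS and BNS. The SK channels, which carry the afterhyperpolarisation, differed by 0.34 ± 0.41 (Kcnn1), 0.07 ± 0.28 (Kcnn2) and -0.18 ± 0.14 (Kcnn3). The sodium-activated Kcnt1 (Slack) was at 0.00 ± 0.19. The leak channels Kcnk1 (TWIK-1), Kcnk2 and Kcnk9 (TASK-3) were at -0.13 ± 0.24, 0.20 ± 0.15 and 0.35 ± 0.35, and the beta subunit Kcnab2 at 0.39 ± 0.21. Apart from Kcnt2, none of these had an adjusted p under 0.2.

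The treated groups were set against BYS to ask what ACTH and PMX53 changed in rats with spasms. In BYA against BYS, 1 of the 66 genes (1.52%) passed, where 8.67% of all genes did. This count rested on SNS replicate 2, the sample of doubtful dye: it was 16 without that sample and 10 with it taken as Cy3. The share of all genes in those 2 fits is not given, so the 1.52% does not show that channel genes passed less often. The gene that passed was Kcnc1, with levels of -0.18, -0.40, -0.44 and 0.15 in BYA, against 0.54, 0.58, 0.18 and 1.08 in BYS. The groups did not overlap, by a narrow margin (0.15 in BYA replicate 4 and 0.18 in BYS replicate 3), and the difference was -0.82 ± 0.24 (adjusted p = 0.0454). In BYP it was -0.70 (adjusted p = 0.0728), from levels of 0.09, -0.32, -0.05 and -0.14. Kcnc1 passed in 5 of the 20 fits that left out 1 sample. It has 1 spot, and its BYA difference was -0.49 (adjusted p = 0.214) with the local trend removed.

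In BYP against BYS, 1 of the 66 genes passed as well, where 9.68% of all genes did. Here too leaving out SNS replicate 2 gave 16 genes and taking it as Cy3 gave 13, and the count was 0 without BYP replicate 1 or BYP replicate 4. With no share of all genes given for those fits, the single call does not show that channel genes passed less often. The gene that passed was Kcnh7, with levels of -2.18, -3.26, -1.80 and -3.34 in BYP, against -1.14, -2.70, -1.30 and -2.55 in BYS, a difference of -0.73 ± 0.19 (adjusted p = 0.0266). Within each dye the BYP samples were all below the BYS samples. With the local trend removed it was -0.53 (adjusted p = 0.106). The 9 genes called higher in BYS than BNS had differences against BYS of -0.82 to -0.11 in BYA and of -0.83 to -0.26 in BYP. These comparisons share the BYS samples with that of BYS against BNS, so their signs are not separate evidence. Over all 66 genes the median difference was -0.23 in BYA and -0.26 in BYP, with 17 and 13 genes above 0, beside medians of -0.11 and -0.15 over all genes.

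Set directly against BNS, neither treated group had a channel gene past the threshold in limma, where 0.241% of all genes passed in BYA and 0.0301% in BYP. At an unadjusted p under 0.05 there were 5 channel genes in BYA and 7 in BYP, where 9.76% and 5.46% of all genes had such a p. The 3 genes of smallest p in BYA were Kcnq1, a subunit known from heart and epithelia, at 0.66 ± 0.17 (adjusted p = 0.140), the silent subunit Kcng1 at 0.63 ± 0.18 (adjusted p = 0.200) and Kcnh3 at 0.50 ± 0.19 (adjusted p = 0.371). The 2 spots of Kcng1 gave 1.25 and 0.01. Kcnq1 had levels of -1.01, -1.38, -0.82 and -0.93 in BYA, against -1.44, -2.07, -1.39 and -1.89 in BNS. All 4 BYA samples were above all 4 BNS samples, by a very narrow margin (-1.378 in BYA replicate 2 and -1.385 in BNS replicate 3). The 2 spots of Kcnq1 gave 0.72 and 0.61. In BYP the 3 genes were Kcng1 at 0.54 ± 0.18, Kcnh4 at -0.38 ± 0.14 and Kcnt1 at -0.50 ± 0.19, with adjusted p of 0.585, 0.688 and 0.704. Kcnt1 had levels of 0.94, 0.55, 0.47 and 1.00 in BYP, against 1.20, 1.28, 1.20 and 1.30 in BNS, without overlap. Kcnq1 and Kcnt1 were named here for their small p, so the lack of overlap is not separate evidence.

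BYP was also set against BYA. None of the 66 genes passed in limma, where 0.0301% of all genes did, and 1 had an unadjusted p under 0.05, as did 4.61% of all genes. The 3 smallest p were those of Kcnt1 at -0.41 ± 0.19, Kcnmb4, the BK beta subunit of neurons, at -0.45 ± 0.26, and Kcnh3 at -0.32 ± 0.19, each with an adjusted p of 0.934. Kcnt1 had levels of 1.01, 0.93, 1.20 and 1.46 in BYA, so BYP replicates 1 and 4, at 0.94 and 1.00, overlapped with the lowest BYA sample.

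BNS against SNS asked what the prenatal betamethasone left behind, and no channel gene passed in limma, where 0.00752% of all genes did. At an unadjusted p under 0.05 there were 21 channel genes, all lower in BNS, where 14.9% of all genes had such a p and 13.1% had it and were lower. This count keeps SNS replicate 2 as Cy5, a dye in which the dim channel genes read lower. The part of the dye in the count was not tested. The differences of Kcna7 and Kcnab3 were -1.13 and -1.28 in samples labelled Cy5, which include SNS replicate 2 of doubtful dye, and -0.29 and -0.12 in Cy3 samples. The median difference of the 66 genes was -0.27, and of all genes -0.07. It was -0.47 in the 40 dim genes and 0.04 in the 26 brighter ones, beside -0.40 and 0.05 over all genes of those deciles. The 3 genes of smallest p were Kcna6 (Kv1.6) at -0.51 ± 0.15, Kcna7 at -0.75 ± 0.25 and Kcnn1 at -1.11 ± 0.39, with adjusted p of 0.241, 0.248 and 0.262. Kcnn1 had levels of -1.85, -3.19, -1.81 and -3.11 in BNS, against -1.81, -1.99, -0.51 and -0.74 in SNS. SNS replicates 3 and 4, of 1 array, were the high ones, and the 2 spots of Kcnn1 gave -2.12 and -0.33.

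BYS against SNS sets rats with both betamethasone and spasms against rats with neither. Here 1 of the 66 genes passed (1.52%), where 7.58% of all genes did, and leaving out SNS replicate 2 gave 7 genes, or taking it as Cy3 gave 10. For these 2 fits too no share of all genes is given, so the 1.52% does not show fewer calls among channel genes. The 40 channel genes of the dimmest 4 deciles had a median difference of 0.05 here, beside 0.05 for all genes of those deciles. In BYS against BNS these medians were 0.49 and 0.46. The gene that passed was Kcna6, a Kv1 subunit of neurons, with levels of 0.21, 0.20, 0.07 and -0.04 in BYS, against 0.58, 0.77, 0.87 and 1.05 in SNS. The groups were far apart, with a difference of -0.68 ± 0.15 (adjusted p = 0.00995), and both spots of the gene gave it, at -0.77 and -0.65. The spots were not alike in the steps between: the brighter gave -0.70 for BYS minus BNS and -0.07 for BNS minus SNS, whereas the dimmer gave 0.35 and -1.01. The levels of the other groups were 0.41 to 0.60 in BYP, 0.03 to 0.58 in BYA and 0.15 to 0.47 in BNS. In a fit of the BYS and SNS samples alone the adjusted p was 0.129. With the array that held BYS replicates 3 and 4 left out it was 0.0524, at a difference of -0.59.

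Other genes of membrane excitability were counted in the comparison of BYS with BNS, where 8.87% of all genes passed and were higher and 6.62% passed and were lower. The lists below are short, so their counts do not show a change particular to a list. Of 12 measured sodium channel subunits, Scn3a passed, higher in BYS by 0.74 ± 0.23 (adjusted p = 0.0364), and the median was 0.32. Of 7 measured HCN and leak channel genes, Hcn3 and Hcn4 passed, higher by 0.56 and 0.60, and the median was 0.22. Of 18 measured partners of potassium channels, such as Dpp6, Lgi1 and Cntnap2, none passed in limma, and the median was 0.32. Of 8 measured oligodendrocyte genes, Mog, Mobp and Ermn passed, higher in BYS. The mean level of the 8 was -0.01 to 1.02 in BYS, against -1.53 to -0.11 in BNS. Flt1 among 6 endothelial genes and Slc4a1 among 4 blood genes were higher in BYS by 0.56 and 1.27. No astrocyte or microglia gene of 8 each passed in limma, with medians of 0.43 and 0.36. Among the 12 arcuate nucleus genes, Gal was higher by 0.62 and Agrp differed by -0.89 (adjusted p = 0.0423). Of the 10 neuronal genes none passed in limma in this comparison, with a median of 0.09. Their part in the channel differences was not tested.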

How the data were processed

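RNA of the arcuate nucleus was hybridised to Agilent rat arrays, 20 samples of 5 groups on 11 arrays. The values deposited by the authors are relative intensities on a linear scale, 1 per spot and sample, from scans read with Agilent Feature Extraction 10.7.3.1, and how the authors normalized them is not given in the sources used here. No column of the table was left unused, and the number of arrays limits the precision. Spots were named through accession, symbol or synonym in RefSeq tables, which added 1 of the 74 genes. For each gene the log2 intensities of spots with a value in all 20 samples were averaged (32107 of 44254 spots). A gene without such a spot took its most complete spot with at least 3 values per group, and each sample was centred on its median over the 12493 genes with all values. Sample medians differed by up to 0.35 before centring.

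The 13292 genes were fitted with limma 3.58.1 in R 4.3.3, with 5 group means, the dye, and the array as a random block (correlation 0.436), then eBayes and Benjamini-Hochberg adjustment over all genes within each of 8 comparisons, several of which share samples. Genes with an adjusted p under 0.05 were taken to pass. The fit was tested on simulated data. Spot differences are of group means. The local trend was a running median over 501 spots in table order. Alternatives covered scaling, filters, blocks, dye, the samples fitted, spots and single samples left out. Python 3.11.15, with numpy 2.4.6, pandas 2.3.3, scipy 1.17.1 and matplotlib 3.10.9, made the other values and plots.

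Genes were named where they passed in a comparison, where they were listed for a known role in neurons, and, in comparisons with none that passed, for the 3 smallest p. Others were named after their values were seen. The members and all lists were chosen with earlier results of these data known. RefSeq promoters are of build GRCr8.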

Additional observations from a re-analysis of the deposited data

Results flagged for a closer look

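In 4 of 158 groups of 4 samples tested for the 32 named genes, 1 sample stood far from the other 3 by Dixon's test. Chance alone would flag about 1 in 20 groups if the 4 samples of a group were alike. Each group holds samples of both dyes, which lie apart in the dim genes, so the number flagged does not show that such samples are rare. Kcnk5 was at -2.35 in SNS replicate 4, with the nearest SNS sample at -2.0 and the farthest at -1.94. Kcnk2 was at -0.50 in SNS replicate 4, with the others at 0.00 to 0.10, and Kcnh4 was at -0.89 in the same sample, with the others at -0.66 to -0.64. Kcnmb4 was at 2.15 in BYP replicate 2, with the other BYP samples at 2.70 to 2.80. SNS replicates 2 and 4 are the SNS samples labelled Cy5, and the dye of replicate 2 is in doubt, so replicate 4 may be the only Cy5 sample of its group. The part of the dye in these values was not tested.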

How the results depend on the processing

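No difference of the 12 that passed changed sign under any of the alternatives run, but each lost the threshold under at least 4 of them. Kcnk3 in BYS against BNS passed in 35 of 39 alternatives and Kcna6 in BYS against SNS in 34 of 39, each with every single sample left out, whereas Kcnab3 passed in 12 of 38 and Kcnh7 in BYS against BNS in 13 of 38. For BYS against BNS the count of 9 genes was 5 with centring on the 75th percentile and with none, 4 without the dimmest 25% of genes, 22 without the array block, 0 with the slide as a random block, 21 with SNS replicate 2 as Cy3, 22 with the 2 groups fitted alone, 5 with the local trend removed, and 1 or 4 with BYS replicates 1 and 2 or 3 and 4 left out as an array. Leaving out 1 sample gave 1 to 23 genes, with 5 without BYS replicate 1, and 4 without BYS replicate 3, BYP replicate 3 or BYP replicate 4.

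For BYA against BYS the count of 1 became 3 with quantile normalization, 2 with centring on the 75th percentile, none or the median spot and with the brightest spot, 15 without the array block, 0 with the slide, 10 with SNS replicate 2 as Cy3, 3 in Cy3 samples alone, 3 with the local trend removed, and 0 or 3 with BYS replicates 1 and 2 or 3 and 4 left out as an array. Leaving out 1 sample gave 0 to 16, with 16 without SNS replicate 2. For BYP against BYS the count of 1 became 7 with quantile normalization, 4 with centring on the 75th percentile or none, 2 with the median spot, 3 without the dimmest genes, with values in all 20 samples and with the brightest spot, 17 without the array block, 0 with the slide, 13 with SNS replicate 2 as Cy3, 13 in Cy3 samples alone, 7 with the groups fitted alone, 2 with an intensity trend in the variance prior, 2 with the local trend removed and 0 with the array of BYS replicates 1 and 2 left out. Leaving out 1 sample gave 0 to 16, with 16 without SNS replicate 2, and 0 without BYP replicate 1 or 4.

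For BYS against SNS the count of 1 became 4 with quantile normalization, 2 without the dimmest genes, with the brightest spot and without the array block, 0 with the slide, 10 with SNS replicate 2 as Cy3, 3 in Cy3 samples alone, 0 with the groups fitted alone, 3 with the local trend removed and 0 with the array of BYS replicates 3 and 4 left out. Leaving out 1 sample gave 1 to 7, with 7 without SNS replicate 2. For BYA against BNS the count of 0 became 1 with quantile normalization, 2 without the array block, 1 with SNS replicate 2 as Cy3, and 0 to 2 with 1 sample left out. It became 2 for BYP against BNS with the groups fitted alone, and 1 for BNS against SNS without the array block. The methods' t-test at its unadjusted threshold gave 6 genes for BYS against BNS, 2 of them among the 9, and 7 for BYA against BYS, 5 for BYP against BYS, 5 for BYS against SNS, 5 for BYA against BNS, 5 for BYP against BNS, 3 for BNS against SNS and 1 for BYP against BYA, and after Benjamini-Hochberg adjustment 0 in every comparison. The cause of these shifts was not tested. With a replicate block in place of the dye the counts were 7 for BYS against BNS and 1 each for BYA against BYS, BYP against BYS and BYS against SNS. Equal numbers did not pair samples, since the correlation of deviations was -0.42 to 0.19, over 0.1 in 6 of 40 pairs. The settings without an array of BYS and with the median spot were chosen after seeing the data. The counts of this section stand without the share of all genes that passed in the same setting. They do not show a change particular to channel genes.

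Each group but SNS lay on 1 slide, so the fits with the slide as block cannot separate slide from group. Of the 9 genes higher in BYS, 8 lay in the dimmest 4 deciles of brightness.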
